A study of Mus musculus with 7 samples.

Results

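The fibroblast growth factor (Fgf) system was examined in whole colon tumors through 10 genes, the receptors Fgfr1, Fgfr2, Fgfr3, Fgfr4 and Fgfrl1 and the ligands Fgf1, Fgf2, Fgf7, Fgf9 and Fgf10. They were found by matching the gene identifiers of the count table to these symbols, and all 10 were present among its 43346 rows. RNA with poly(A) tails was sequenced from 7 tumors of mice labelled C57BL6/J. The recipients were wild type and received bone marrow (BM) transplants labelled Dnmt3a(+/-) (4 tumors, written here as Dnmt3a+/Δ BM) or Dnmt3a(+/+) (3 tumors, Dnmt3a+/+ BM). Recipients were 8 weeks old per the labels. Both groups then received the same induction of colitis-associated cancer, azoxymethane (AOM) at 10 mg/kg, a mutagen, and then dextran sulfate sodium (DSS) at 3% in 3 cycles, which injures the colon epithelium. Donors of both groups carried Mx1-Cre, which is induced by interferon, and received poly(I:C), so that 1 Dnmt3a allele was excised in the floxed donors only. The excision was thus made in the donors, and tumor cells of other than hematopoietic origin belonged to the wild-type recipients. The tumors came from 2 transplantation experiments, BMT18 (replicates 1 and 2 of each group) and BMT8 (replicate 3 of the Dnmt3a+/+ group, replicates 3 and 4 of the Dnmt3a+/Δ group).

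Fgf ligands are secreted proteins that signal through receptor tyrosine kinases, with heparan sulfate chains holding the ligand on its receptor. Activated receptors recruit the adaptor Frs2 and switch on the Ras and MAP kinase cascade, which in turn induces its own inhibitors. In many epithelial organs the stroma secretes Fgf7 and Fgf10, whose receptor is the epithelial splice form of Fgfr2, while Fgfr1 is the receptor typical of fibroblasts and vessels. Counts per gene do not separate the epithelial from the mesenchymal splice forms of Fgfr1, Fgfr2 and Fgfr3. Fgfrl1 binds Fgf ligands and heparin but lacks the kinase domain.

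Library totals ranged from 38472738 to 64314999 counts, and levels are given as counts per 1000000 (CPM) on TMM-scaled library sizes. Dnmt3a itself was measured at 20.3 to 24.3 CPM with Dnmt3a+/+ BM and at 22.03 to 43.0 CPM with Dnmt3a+/Δ BM, a level to which recipient cells contribute, so it does not check the labels. Defining epithelial markers were abundant in all 7 tumors, with Epcam between 1543 and 3239 CPM. Markers of leukocytes, the cells that come from the graft, summed to 59.8 to 130 CPM in the controls and to 52.7 to 247 CPM with Dnmt3a+/Δ BM. Replicate 2 of the Dnmt3a+/Δ group stood apart from the others by its stromal genes, and group differences that it moves by over 1.5 times are given with and without it. Since the tissue was bulk tumor, fewer cells of a type and less RNA per cell cannot be told apart in any value below.

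Among the 8 members that could be tested, the largest difference between the groups was in the receptor without a kinase, Fgfrl1, and the smallest in Fgfr2, and the 250 bases before their start sites are shown because these promoters differed strongly in base composition. RefSeq start sites of build GRCm38.p6 were matched for 8 of the 10 genes, in 9 windows, without Fgfr1 and Fgf1. The Fgfrl1 window at chr5:108693979-108694228, on the plus strand, held 30 CG dinucleotides, a count reached by 5.94% of 32851 such windows. The Fgfr2 window at chr7:130266809-130267058, on the minus strand, held 2, and 29.0% of windows held as few or fewer. The median window held 6. Capitals mark the GC box letters GGGCGG, or CCGCCC on the other strand, which 32.7% of all windows contained.
Fgfrl1: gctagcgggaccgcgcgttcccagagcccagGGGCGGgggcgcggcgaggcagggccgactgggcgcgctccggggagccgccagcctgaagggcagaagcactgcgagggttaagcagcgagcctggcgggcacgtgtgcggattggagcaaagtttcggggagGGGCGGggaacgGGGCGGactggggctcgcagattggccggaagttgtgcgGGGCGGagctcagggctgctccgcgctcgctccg
Fgfr2: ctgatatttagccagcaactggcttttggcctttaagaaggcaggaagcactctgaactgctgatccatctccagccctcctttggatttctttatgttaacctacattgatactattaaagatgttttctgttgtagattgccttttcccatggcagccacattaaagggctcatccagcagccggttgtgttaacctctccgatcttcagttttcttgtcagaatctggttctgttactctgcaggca
The letters GGGCGG occurred on neither strand of the Fgfr2, Fgf7 and Fgf9 windows, and the windows of Fgfr3, Fgfr4, Fgf2 and Fgf10 held them as that of Fgfrl1 did. Among the other members the windows of Fgfr3 held 19 and 24 CG dinucleotides, Fgf2 20, Fgfr4 15, Fgf9 11, Fgf10 8 and Fgf7 6. These are features of the reference sequence, and DNA methylation was not measured in these tumors. Their relation to the group differences was not tested. The Fgfrl1 window lies inside the GENCODE span of that gene, which starts upstream of it at 108692382.

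To rank the 10 genes, their levels were divided by the length of merged exons. Fgfrl1 was the most abundant member per length, with 13.03 ± 3.16 CPM per kilobase with Dnmt3a+/+ BM (SD, n = 3) and 34.2 ± 12.5 with Dnmt3a+/Δ BM (SD, n = 4). Fgfr4 followed at 6.40 ± 2.49 and 5.65 ± 1.32 CPM per kilobase, and Fgfr2 at 5.56 ± 1.64 and 5.54 ± 2.27, a pair that differed by less than its SD in both groups. Fgfr3 stood at 1.67 ± 0.97 and 1.33 ± 0.71 CPM per kilobase. The ligands Fgf1 (1.41 ± 0.78 and 1.88 ± 1.51) and Fgf7 (0.82 ± 0.22 and 1.47 ± 0.86) could not be ordered against each other beyond their SD. Fgfr1 was the scarcest receptor, at 0.25 ± 0.061 and 0.59 ± 0.40 CPM per kilobase, and lay within its SD of Fgf9 at 0.25 ± 0.096 and 0.30 ± 0.094. Fgf10 and Fgf2 lay lowest, at 0.039 or less on average in either group. This order depended on the length used. Divided by the longest annotated transcript, Fgfr2 stood at 12.95 ± 3.82 CPM per kilobase with Dnmt3a+/+ BM and 12.9 ± 5.28 with Dnmt3a+/Δ BM, above Fgfr4 (6.81 ± 2.65 and 6.02 ± 1.40) by more than the SD and, in the controls, within the SD of Fgfrl1 (15.6 ± 3.78 and 40.8 ± 14.9). By that length Fgfr3 stood at 2.81 ± 1.64 and 2.24 ± 1.19 CPM per kilobase, and Fgfr1, at 0.497 ± 0.119 and 1.17 ± 0.78, lay beyond the SD above Fgf9 (0.32 ± 0.12 and 0.39 ± 0.12) in the controls only. By either length Fgfr2 and Fgfr4 were the most abundant kinase receptors and Fgfr1 the scarcest. Per kilobase of merged exons, the ratio of Fgfr1 to Fgfr2 was 0.035 to 0.060 in the Dnmt3a+/+ tumors, and 0.063, 0.465, 0.049 and 0.074 in Dnmt3a+/Δ replicates 1 to 4, so that 1 tumor stood far above the rest. Per length, Fgfr1 exceeded Fgfr3 in 1 tumor, Dnmt3a+/Δ replicate 2, where their ratio was 1.496.

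**Figure D1:**
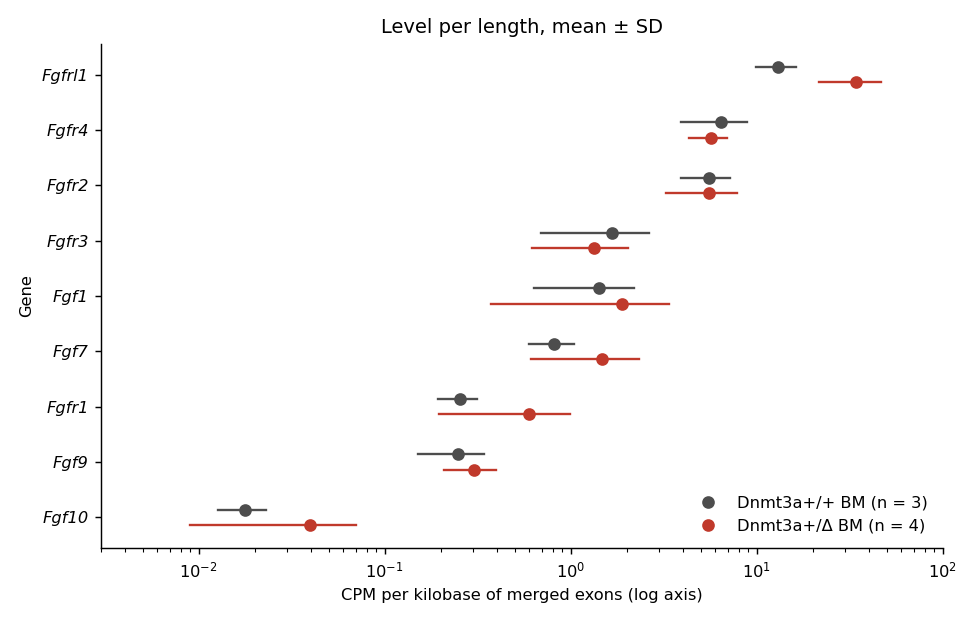
Level per length of 9 members (CPM per kilobase of merged exons, log axis), with points for group means and lines for ± SD (Dnmt3a+/+ BM, n = 3; Dnmt3a+/Δ BM, n = 4). Fgf2 is not drawn because its Dnmt3a+/+ mean is 0. Fgfrl1 lies highest in both groups, and Fgfr1 lies near Fgf9, below Fgfr2, Fgfr3 and Fgfr4.

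Which members differed between tumors from mice with and without Dnmt3a-deficient hematopoiesis was asked with edgeR's quasi-likelihood test over 15810 genes, p-values being adjusted by the Benjamini-Hochberg method. Calls needed an adjusted p below 0.05 together with a log2 fold change beyond 1 in either direction. With edgeR, none of the 8 members with enough counts was called, nor was any of all genes tested (0%), and the lowest adjusted p over all genes was 0.361. At an unadjusted p under 0.05, Fgfrl1 and Fgfr1 passed, both higher with Dnmt3a+/Δ BM, where 5.83% of all genes passed in that direction and 11% in either. DESeq2 called 1 member, Fgfrl1, and 1.87% of all genes.

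Fgfrl1 (chromosome 5, 108692382 to 108706924, plus strand, build mm10, as are all gene positions here) was measured at 35.8, 27.7 and 45.2 CPM in the Dnmt3a+/+ tumors and at 44.9, 117, 99.0 and 119 CPM in the Dnmt3a+/Δ tumors. Replicate 1 of the Dnmt3a+/Δ group lay just under the highest control, and the other 3 lay above every control. The means were 36.2 ± 8.80 CPM (SD, n = 3) and 95.1 ± 34.7 CPM (SD, n = 4), a log2 fold change of 1.39 (SE 0.36, unadjusted p = 0.00483, adjusted p = 0.361, edgeR). DESeq2 gave 1.40 with an adjusted p of 0.0203. Within BMT18 the log2 fold change was 1.37 (unadjusted p = 0.0586, edgeR). Within BMT8, with 2 tumors against 1 control, it was 1.26, given as an effect size only. It ranged from 1.23 to 1.65 when each tumor was left out in turn. The 12 epithelial markers summed to 20520 to 39920 CPM in the Dnmt3a+/+ tumors and to 11170 to 25250 CPM in the Dnmt3a+/Δ tumors, with overlap, and most of the sum came from Krt8, Krt19 and Lgals4. Of the 12, 3 were lower and 1 (Cdx2) higher at an unadjusted p under 0.05, where 5.2% and 5.83% of all genes passed. Of these markers edgeR called 0 and DESeq2 1, against 1.87% of all genes with DESeq2. Per 1000 CPM of those markers, Fgfrl1 stood at 1.05 to 1.75 CPM in the controls. In the Dnmt3a+/Δ tumors it stood at 2.89, 10.5, 5.08 and 4.73 CPM. These ratios did not overlap, while the Fgfrl1 levels themselves did. The marker sum of Dnmt3a+/Δ replicate 1 (15560 CPM) lay below every control, which raises such a ratio for any gene. The share of all genes that separate on this ratio was not computed. Per 1000 CPM of 12 fibroblast markers, the groups overlapped, at 103 to 124 and 96.0 to 323 CPM.

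Fgfr1 (chromosome 8, 25513654 to 25575718, plus strand), the receptor typical of mesenchyme, was measured at 3.20, 2.09 and 2.23 CPM with Dnmt3a+/+ BM and at 4.64, 11.7, 3.43 and 3.68 CPM with Dnmt3a+/Δ BM. Every Dnmt3a+/Δ tumor lay above every control, as for 6.12% of all genes tested, and replicate 2 lay far above the other 3. No member had all its Dnmt3a+/Δ tumors below every control, as 6.32% of all genes did. The means were 2.51 ± 0.60 CPM (SD, n = 3) and 5.87 ± 3.94 CPM (SD, n = 4), and the log2 fold change was 1.23 (SE 0.51, unadjusted p = 0.0447, adjusted p = 0.443, edgeR). DESeq2 gave an adjusted p of 0.206. Without replicate 2 of the Dnmt3a+/Δ group the log2 fold change was 0.67. Within BMT18 it was 1.65 (unadjusted p = 0.0549, edgeR). Within BMT8, with 2 tumors against 1 control, it was 0.66, given as an effect size only.

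Fibroblast and endothelial markers were highest in the tumor with the highest Fgfr1. The summed level of 12 fibroblast markers was 223 to 376 CPM in the controls and 307 to 426 CPM in the other Dnmt3a+/Δ tumors against 1219 CPM in replicate 2 of that group. Per 1000 CPM of fibroblast markers, Fgfr1 stood at 9.23, 9.39 and 5.95 CPM in the controls and at 13.6, 9.63, 11.2 and 8.63 CPM in the Dnmt3a+/Δ tumors, so that the groups overlapped. The 10 endothelial markers summed to 20.2 to 40.3 CPM in the controls and to 34.6 to 173 CPM in the Dnmt3a+/Δ tumors, or to 34.6 to 92.4 CPM without replicate 2. At an unadjusted p under 0.05, 7 of 10 were higher, against 5.83% of all genes, and edgeR called 0 and DESeq2 3, against 1.87% of all genes. Their median log2 fold change was 1.74, and 1.202 without replicate 2. Per 1000 CPM of endothelial markers, Fgfr1 was 55.4 to 151 CPM in the controls and 39.8 to 134 CPM with Dnmt3a+/Δ BM. The part of either cell type in the Fgfr1 difference was not tested.

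Fgfr2 (chromosome 7, 130162451 to 133123350, minus strand, a GENCODE span that 1 far-reaching transcript extends and inside which the RefSeq start used above lies), in its epithelial form the receptor of Fgf7 and Fgf10, was measured at 71.7, 61.7 and 38.7 CPM in the Dnmt3a+/+ tumors and at 77.4, 26.4, 73.2 and 51.7 CPM in the Dnmt3a+/Δ tumors. The groups overlapped throughout, with the highest and the lowest tumor both in the Dnmt3a+/Δ group. The means were 57.4 ± 16.9 CPM (SD, n = 3) and 57.2 ± 23.4 CPM (SD, n = 4), with a log2 fold change of -0.0054 (SE 0.38, adjusted p = 0.998, edgeR), and the experiments pointed opposite ways, -0.36 in BMT18 and 0.69 in BMT8, a contrast that was not tested. Fgfr3 (chromosome 5, 33721674 to 33737068, plus strand), a receptor found in differentiating epithelia and cartilage, was measured at 17.2, 14.6 and 4.04 CPM in the controls and at 15.9, 5.68, 11.2 and 5.25 CPM with Dnmt3a+/Δ BM. Its log2 fold change was -0.33 (SE 0.57, adjusted p = 0.877, edgeR), with -0.55 in BMT18 and 1.03 in BMT8. Fgfr4 (chromosome 13, 55152640 to 55168759, plus strand), best known in liver as the receptor of the gut hormone Fgf15, was measured at 13.4, 30.9 and 23.7 CPM in the controls and at 15.1, 17.0, 24.2 and 23.8 CPM with Dnmt3a+/Δ BM. All 4 Dnmt3a+/Δ values of Fgfr4 fell inside the range of the controls, and its log2 fold change was -0.18 (SE 0.31, adjusted p = 0.877, edgeR). Without replicate 2 of the Dnmt3a+/Δ group, the log2 fold changes were 0.26 for Fgfr2, -0.12 for Fgfr3 and -0.078 for Fgfr4 (edgeR). The SE of these 3 receptors, 0.31 to 0.57 on the log2 scale, sets the size of difference that 7 tumors could show.

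Fgfr2 and Fgfr3 shared a split of the tumors that did not follow the graft. Both were highest in the same 4 tumors, replicates 1 and 2 of the Dnmt3a+/+ group and replicates 1 and 3 of the Dnmt3a+/Δ group, and lowest in the other 3. Those 4 tumors also held the highest summed level of 10 smooth muscle and pericyte markers, 945, 809, 628 and 1207 CPM, against 28.6, 318 and 355 CPM in the Dnmt3a+/+ replicate 3 and the Dnmt3a+/Δ replicates 2 and 4. The sum came mostly from the muscle genes, while the pericyte genes Rgs5 and Pdgfrb were highest in Dnmt3a+/Δ replicate 2, at 44.1 and 23.7 CPM. Myh11, the smooth muscle myosin, was at 0.73 CPM in Dnmt3a+/+ replicate 3 and at 26.3 to 297 CPM in the other tumors. The part of smooth muscle RNA in the receptor levels was not tested. The epithelial marker sum was 20520, 26410, 15560 and 19490 CPM in those 4 tumors and 39920, 11170 and 25250 CPM in the other 3, in the same orders. Replicate 3 of the Dnmt3a+/+ group had the highest sum and the lowest Fgfr3 level. Most of the summed markers, such as Epcam (3239 CPM, against 2004 and 2680 CPM), were highest among the controls in that tumor. The exceptions were Cdh1 (1156 CPM, between 992 and 1261 CPM) and Cdx1 (246.2 CPM, between 223.9 and 291.5 CPM). The part of epithelial RNA in the receptor levels was not tested either.

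**Figure D2:**
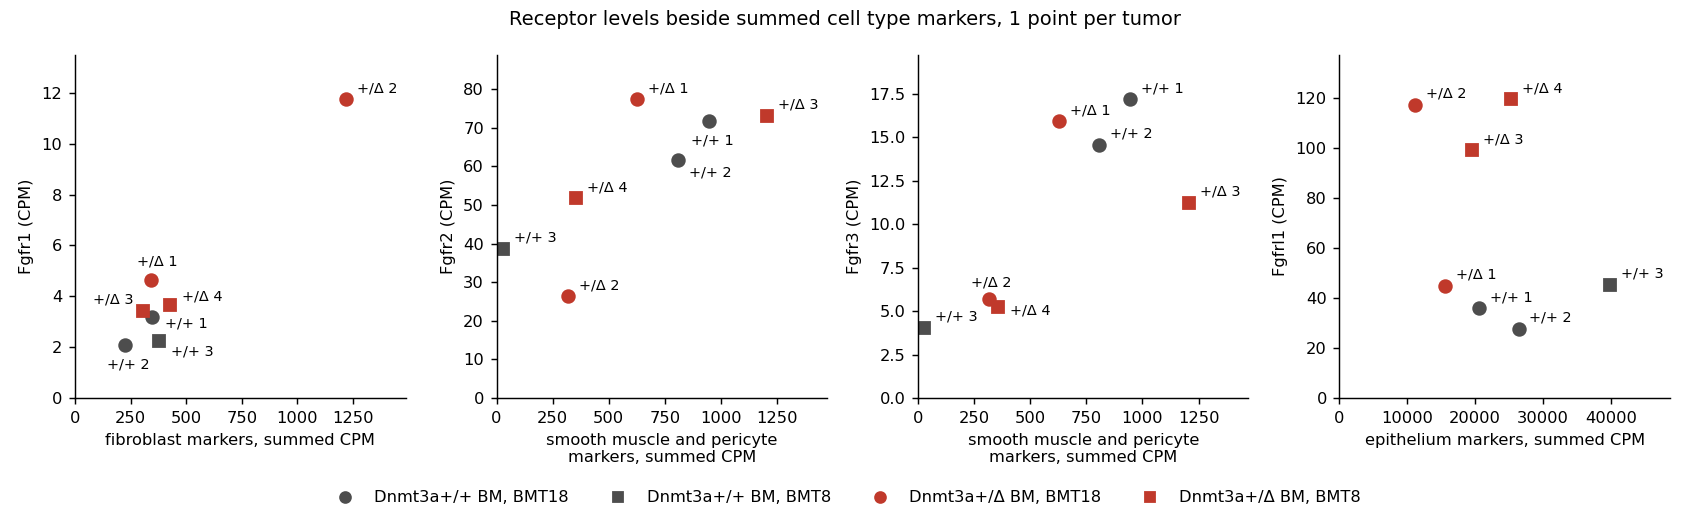
Level of Fgfr1, Fgfr2, Fgfr3 and Fgfrl1 (CPM, vertical axes) against the summed level of a cell type's markers (CPM, horizontal axes) in 7 tumors, 1 point each, numbered by replicate, with color for the graft and shape for the experiment. Fgfr1 and fibroblast markers are both highest in Dnmt3a+/Δ replicate 2 (11.7 and 1219 CPM), and the 4 tumors with the highest smooth muscle sums hold the 4 highest Fgfr2 and Fgfr3 levels.

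The genes whose profiles over the 7 tumors were most like those of these receptors were ranked by the root mean square difference of centred log2 CPM. Closest to Fgfr1 were Dlc1 (0.126), a GTPase-activating protein, Slc7a2 (0.135), Hacd4 (0.175), Lamp2 (0.186) and Dnm1 (0.189), where the median over all genes was 0.861. Closest to Fgfr2 were Klhl4 (0.180), Cirbp (0.187), Trim68 (0.187), Gm16124 (0.196) and 9030407P20Rik (0.199), against a median of 0.662. Closest to Fgfr3 were Eml6 (0.158), Dgkh (0.212), Slco2a1 (0.233), Fam83b (0.236) and Usp53 (0.238), against a median of 0.904. At each of the 5 ranks the difference was smaller for Fgfr1 than for Fgfr2 or Fgfr3, over the same 7 libraries. The margin was narrow against the fifth gene of Fgfr2 (0.189 and 0.199) and was not tested. The Fgfr1 profile includes the high value of Dnmt3a+/Δ replicate 2 (11.7 CPM), and its likeness to other genes without that tumor was not examined.

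Among the ligands, Fgf7, the stromal factor that acts on epithelium, was measured at 2.23, 2.25 and 3.49 CPM in the controls and at 2.12, 8.39, 3.11 and 5.52 CPM in the Dnmt3a+/Δ tumors. Its lowest and highest values were both in the Dnmt3a+/Δ group, and the log2 fold change was 0.85 (SE 0.51, unadjusted p = 0.137, adjusted p = 0.567, edgeR), or 0.46 without replicate 2 of that group. Per 1000 CPM of fibroblast markers, Fgf7 stood at 6.44 to 10.1 CPM in the controls and at 6.21 to 12.9 CPM with Dnmt3a+/Δ BM. Fgf1, which binds every Fgf kinase receptor, was measured at 6.82, 12.4 and 3.98 CPM in the controls and at 5.69, 22.3, 8.75 and 4.33 CPM with Dnmt3a+/Δ BM. Its log2 fold change was 0.41 (SE 0.64, adjusted p = 0.857, edgeR), and -0.27 without replicate 2 of the Dnmt3a+/Δ group. Fgf9, a ligand of mesenchymal receptor forms, ran from 0.70 to 1.59 CPM in the controls and from 0.90 to 1.79 CPM with Dnmt3a+/Δ BM, with a log2 fold change of 0.29 (SE 0.45, adjusted p = 0.855, edgeR).

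Fgf2 and Fgf10 had too few counts to be tested. Fgf10, the mesenchymal partner of Fgfr2, gave 4, 5 and 2 counts in the controls and 12, 14, 7 and 0 counts in the Dnmt3a+/Δ tumors, 44 in all. Fgf2, a mitogen of fibroblasts and endothelium, gave 0 counts in all 3 controls, and a count of 0 allows a level of up to 0.0468 to 0.0918 CPM per library. In the Dnmt3a+/Δ tumors it gave 0, 13, 1 and 0 counts, so that 13 of its 14 counts came from replicate 2, the tumor with the highest level of Fgfr1, Fgf1 and Fgf7. Differences in these 2 ligands were not detectable at this depth.

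**Figure D3:**
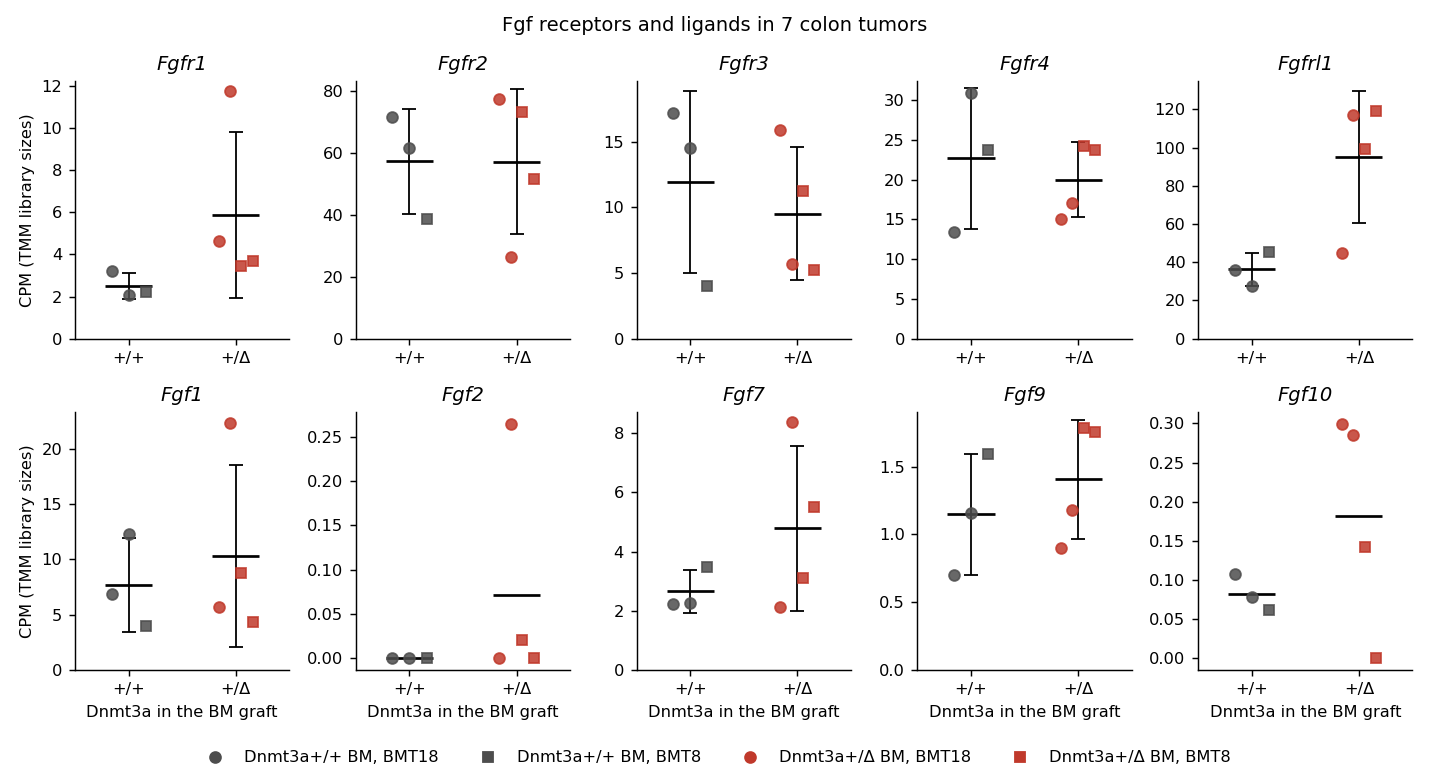
Level of the 10 members (CPM on TMM library sizes) in each tumor, by Dnmt3a genotype of the BM graft, with color for the graft and shape for the experiment. Bars are the group mean and, for the 8 tested genes, whiskers are ± SD (n = 3 and 4), and the axes start at or just below 0. The 3 controls are the lowest tumors for Fgfr1, Fgfrl1 of Dnmt3a+/Δ replicate 1 (44.9 CPM) lies just under the highest control (45.2 CPM), and replicate 2 of the Dnmt3a+/Δ group (11.7 CPM of Fgfr1) is the highest tumor for Fgfr1, Fgf1, Fgf2 and Fgf7.

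**Figure D4:**
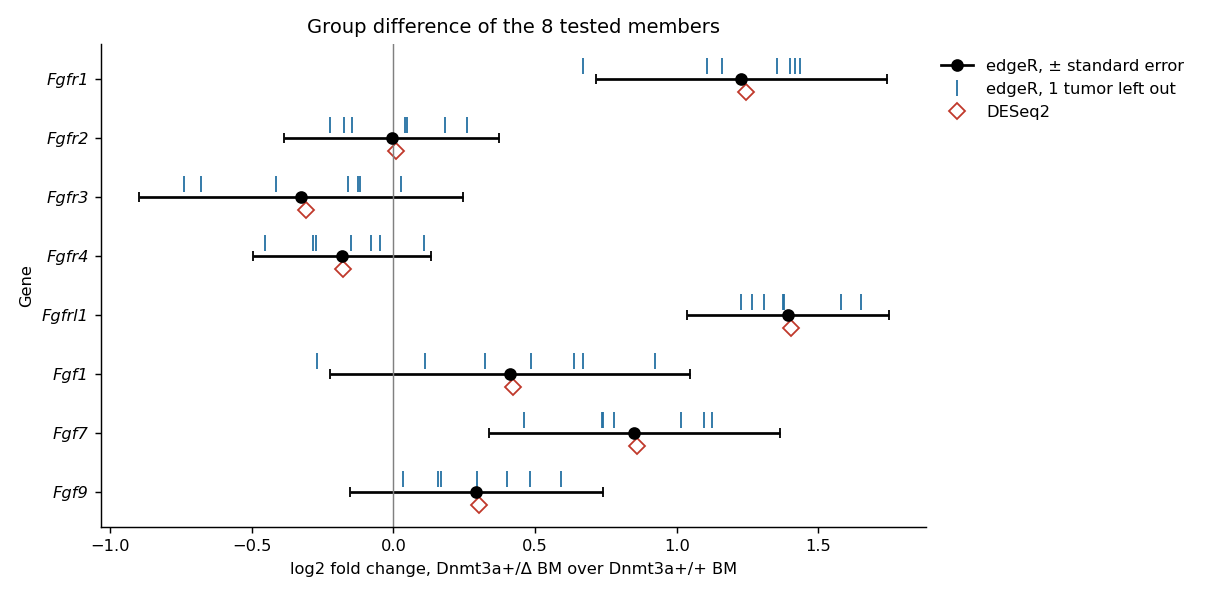
Difference between the groups (log2 fold change, Dnmt3a+/Δ BM over Dnmt3a+/+ BM) of the 8 tested members, with edgeR estimates ± SE as black points, edgeR estimates with 1 tumor left out as blue ticks and DESeq2 estimates as red diamonds. The ticks of Fgfrl1 run from 1.23 to 1.65 and those of Fgfr1 from 0.67 to 1.44, while those of Fgfr2, Fgfr3, Fgfr4 and Fgf1 lie on both sides of 0.

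The rest of the pathway was examined in 4 lists. Of 17 other Fgf ligands, 3 (Fgf5, Fgf6 and Fgf8) had no count in any tumor and 5 could be tested. Fgf3, first known as an oncogene of mouse mammary tumors, was the only one of them to pass an unadjusted p under 0.05. It was measured at 0.64, 0.30 and 1.87 CPM in the controls and at 1.298, 4.18, 8.61 and 5.27 CPM in the Dnmt3a+/Δ tumors, with a log2 fold change of 2.38 (SE 0.82, unadjusted p = 0.0210, adjusted p = 0.406, edgeR). DESeq2 called it (adjusted p = 0.0463). Fgf13, an intracellular member of the family that is not secreted, had a log2 fold change of 1.47 (SE 1.00, adjusted p = 0.610, edgeR) and of -0.10 in BMT18 alone. The median log2 fold change of the 5 tested ligands was 1.47, against 0.0025 for all genes, but 0.70 with the experiment as a covariate and -0.10 in BMT18 alone.

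Co-receptors and carriers of Fgf ligands were mostly well expressed, and 20 of 21 could be tested. Gpc1, a cell surface heparan sulfate proteoglycan, was measured at 52.2, 35.9 and 53.4 CPM in the controls and at 67.2, 122, 104 and 101 CPM with Dnmt3a+/Δ BM. All 4 Dnmt3a+/Δ tumors lay above every control (log2 fold change 1.07, SE 0.24, unadjusted p = 0.00256, adjusted p = 0.361, edgeR), and DESeq2 called the gene (adjusted p = 0.0145). Ext1, which polymerizes heparan sulfate chains, also did not overlap, at 44.6 ± 11.3 CPM and 68.4 ± 11.3 CPM (SD, n = 3 and 4, unadjusted p = 0.0235, edgeR). Hspg2, the basement membrane proteoglycan perlecan, had a log2 fold change of 1.197 (SE 0.45, unadjusted p = 0.0301, edgeR), with 2.01 in BMT18, 0.17 in BMT8 and 0.82 without Dnmt3a+/Δ replicate 2. The most abundant carriers, the syndecans Sdc1 (565 ± 243 and 587 ± 234 CPM) and Sdc4 (402 ± 116 and 298 ± 70.2 CPM, SD, n = 3 and 4), did not pass. In all, 3 of 20 were higher and 0 were lower at an unadjusted p under 0.05, where 5.83% and 5.2% of all genes passed, and the median log2 fold change was 0.097, with -0.052 to 0.27 over the alternatives. The klotho co-receptors of the endocrine Fgfs were low, with Klb at 0.73 ± 0.59 and 0.63 ± 0.43 CPM (SD, n = 3 and 4) and Kl too low to test.

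The 19 intracellular transducers were all tested. At an unadjusted p under 0.05 (edgeR), 1 was higher and 2 were lower, where 5.83% and 5.2% of all genes passed. In either direction 15.8% of the list passed, against 11% of all genes. The median log2 fold change was -0.093, with -0.18 to 0.10 over the alternatives and -0.060 without replicate 2 of the Dnmt3a+/Δ group. Plcg1, the phospholipase bound by activated Fgf receptors, was at 29.8 ± 2.35 CPM in the controls and at 49.1 ± 13.4 CPM with Dnmt3a+/Δ BM (SD, n = 3 and 4), without overlap (log2 fold change 0.72, SE 0.22, unadjusted p = 0.0120, adjusted p = 0.383, edgeR). Map2k1, the MAP kinase kinase downstream of Raf, had a log2 fold change of -0.52 (SE 0.22, unadjusted p = 0.0492, edgeR). Mapk3, the most abundant transducer, was at 278 ± 17.6 and 227 ± 27.0 CPM and did not pass. Frs2, the adaptor most closely tied to Fgf receptors, was at 23.3 ± 9.84 and 21.6 ± 5.84 CPM (SD, n = 3 and 4).

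Of 19 response and feedback genes, 18 were in the table and all of these were tested, with 2 higher and 0 lower at an unadjusted p under 0.05, a share of 11.1% where 11% of all genes passed, and a median log2 fold change of 0.45, or 0.16 without replicate 2 of the Dnmt3a+/Δ group. Etv5, an Ets transcription factor induced by Fgf and other growth factors, differed most. It was measured at 12.7, 13.6 and 13.8 CPM in the Dnmt3a+/+ tumors and at 34.2, 162, 75.9 and 39.4 CPM in the Dnmt3a+/Δ tumors. The controls lay close together and every Dnmt3a+/Δ tumor lay above them (log2 fold change 2.54, SE 0.56, unadjusted p = 0.00215, adjusted p = 0.361, edgeR). DESeq2 called Etv5 with an adjusted p of 0.000697, and the log2 fold change without replicate 2 was 1.94. Il17rd, a membrane inhibitor of Fgf signaling also called Sef, was at 5.41 ± 1.29 and 11.1 ± 5.03 CPM (SD, n = 3 and 4, log2 fold change 1.03, SE 0.39, unadjusted p = 0.0305, edgeR).

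The other genes of the list did not pass. Spred3, an inhibitor of the Ras cascade, had a log2 fold change of 1.76 at a low level (0.41 and 1.40 CPM, unadjusted p = 0.0977, edgeR), and 0.45 without replicate 2. Etv4, the closest relative of Etv5, was at 19.2 ± 9.38 CPM and 16.7 ± 4.36 CPM, the MAP kinase phosphatase Dusp6 at 66.6 ± 10.2 and 73.0 ± 15.5 CPM, and the Sprouty inhibitor Spry2 at 22.9 ± 4.79 and 19.4 ± 1.66 CPM (SD, n = 3 and 4). Spry4, another Sprouty, had a log2 fold change of 0.56 (SE 0.75, unadjusted p = 0.474, edgeR), and -0.50 without replicate 2. The most abundant genes of the list, Ccnd1 (186 ± 52.1 and 255 ± 48.3 CPM), the G1 cyclin, and Phlda1 (151 ± 88.7 and 209 ± 58.4 CPM), did not pass either. Ret, which is in none of the 4 lists, is the receptor of glial-derived neurotrophic ligands and is itself able to induce Etv5. It was at 4.97, 5.42 and 8.23 CPM in the controls and at 12.0, 24.2, 29.6 and 35.2 CPM in the Dnmt3a+/Δ tumors. The glial and neuronal markers Sox10, S100b and Elavl4 were under 0.5 CPM in every tumor. The part of Ret in the Etv5 difference was not tested.

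**Figure D5:**
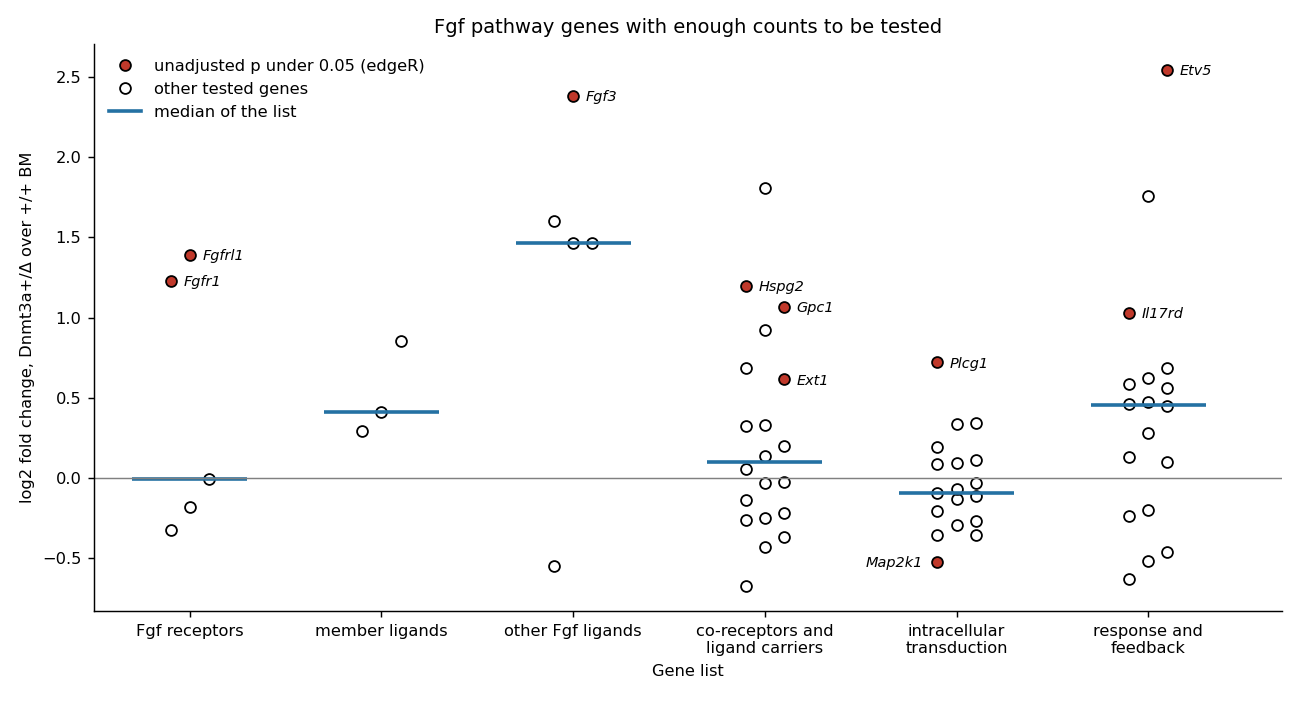
Difference between the groups (log2 fold change, Dnmt3a+/Δ BM over Dnmt3a+/+ BM, edgeR) of the tested Fgf pathway genes, by list, with 1 transducer not drawn. Filled points passed an unadjusted p under 0.05, open points did not, and blue lines are list medians. The filled points are at or above 0.62 except Map2k1, which lies at -0.52.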

How the data were processed

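Whole colon tumor RNA was measured in 7 mice. The authors trimmed reads with Trimmomatic, aligned them to mm10 with STAR and estimated counts with RSEM (tools and build also in the submitters' processing notes), and the annotation release is not given in the sources used here. The deposited values are expected counts per gene, all whole numbers, without normalization. Gene symbols, positions and merged exon lengths came from GENCODE release M21 (GRCm38), and promoter windows from RefSeq.

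The comparison used the quasi-likelihood F test of edgeR (4.0.16, R 4.3.3) after TMM scaling and filterByExpr, without a covariate, with Benjamini-Hochberg adjustment over all genes tested. Calls needed an adjusted p below 0.05 together with a log2 fold change beyond 1 in either direction. The study's own test, DESeq2 (1.42.0 here), was an alternative, and the scripts were tested on simulated data. CPM used TMM library sizes, and the likeness of profiles log2 CPM with a prior count of 2. The SE is the fold change over the root of its F statistic. A count of 0 allows up to 3 counts, and such limits cover counting error only.

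The 10 members and all gene lists were chosen with earlier results of these data known, so their counts are descriptions, and no list was tested as a set. Named were the members, the 2 most abundant genes and up to 5 genes with the lowest unadjusted p under 0.05 in each pathway list, the 5 genes most like Fgfr1, Fgfr2 and Fgfr3, and marker genes that were most abundant or near 0. Other genes, such as Epcam, Myh11, Ret, Frs2, Klb, Rgs5, Pdgfrb and the feedback genes below the threshold, were named after their values were seen. Totals of 38472738 to 64314999 counts gave each library a limit of 0.0468 to 0.0918 CPM. Of the transducers, 1 that passed an unadjusted p under 0.05 is counted but not reported here.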

Additional observations from a re-analysis of the deposited data

Results flagged for a closer look

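In groups of 4 to 10 tumors, the gap between an extreme tumor and its nearest neighbor was compared with the range of the group by Dixon's criterion. Of 32 values examined in the Dnmt3a+/Δ group, 4 stood out, where chance gives about 1 in 20. Fgfr1 reached 11.7 CPM in replicate 2, against 3.43 to 4.64 CPM in the other 3 tumors. Fgf2 reached 0.265 CPM in replicate 2 and was at most 0.0203 CPM in the others. The summed fibroblast markers reached 1219 CPM in replicate 2, and 307 to 426 CPM in the others. The syndecan Sdc1 reached 934 CPM in replicate 1. Thus 3 of the 4 flags fell on the same tumor.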

How the results depend on the processing

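Of the 8 tested members, Fgfrl1, Fgfr1, Fgf7 and Fgf9 kept their direction under all alternatives run, and edgeR called no member under any alternative, also with the adjusted p alone. Scaling by library size only moved the median log2 fold change of all genes to 0.21, and the values under it include that shift. Fgfr2, at -0.0054, turned positive with DESeq2 (0.0098), DESeq2 size factors (0.013), library size only (0.17), the experiment as a covariate (0.037) and BMT8 alone (0.69, an alternative chosen after seeing the data), and ranged from -0.23 to 0.26 with 1 tumor left out. Fgfr3 turned positive with the experiment as a covariate (0.023) and in BMT8 alone (1.03) and ranged from -0.74 to 0.026 with 1 tumor left out, and Fgfr4 turned positive with library size only (0.015) and in BMT8 alone (0.010) and ranged from -0.45 to 0.11. Fgf1 ranged from -0.27, without replicate 2 of the Dnmt3a+/Δ group, to 0.92. The causes were not tested. Fgfrl1 was called by DESeq2 (1.40), which thus called 1 member, and 1 gene each of the other ligands, the carriers and the feedback genes.

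The number of members at an unadjusted p under 0.05 was 2, and 0 in BMT18 alone, and 1 to 2 with 1 tumor left out. It was 1 without Dnmt3a+/+ replicate 1, 2 or 3 in turn, and 1 without Dnmt3a+/Δ replicate 2. For the other ligands it was 1, and 2 with DESeq2 or library size only (0 without Dnmt3a+/+ replicate 1 or 2 or Dnmt3a+/Δ replicate 3, and 2 without Dnmt3a+/Δ replicate 1 or 2). For the carriers it was 3, and 5 with the experiment as a covariate (1 without Dnmt3a+/+ replicate 2, 5 without Dnmt3a+/+ replicate 3). For the transducers it was 3, and 5 with that covariate (1 without Dnmt3a+/+ replicate 2 or Dnmt3a+/Δ replicate 2 or 3). For the feedback genes it was 2, and 4 with that covariate or in BMT18 alone (1 without Dnmt3a+/+ replicate 1 or Dnmt3a+/Δ replicate 2 or 3, 4 without Dnmt3a+/Δ replicate 1). At most 3 transducers passed with 1 tumor left out. Over all genes 11% passed in the main comparison, and the share under each alternative was not computed. Changes in these counts thus cannot be told apart from changes over all genes.

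With the replicate number as a block, 1 member, Fgfrl1, passed an unadjusted p under 0.05 (log2 fold change 1.18, unadjusted p = 0.0260, edgeR), and Fgfr1 gave 1.201 (unadjusted p = 0.0781, edgeR). The numbers do not mark shared animals, the deviations of same-numbered tumors correlated at 0.57, 0.071 and -0.038, and replicate 4 has no partner. The depth limits what can be said of Fgf2 and Fgf10, with 14 and 44 counts in all. Dividing by the longest transcript in place of merged exons moved the levels of Fgfr1, Fgfr2 and Fgfr3 by over 1.5 times and put Fgfr2 above Fgfr4.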
